A study of Mus musculus with 48 samples.

Results

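TRBV19 is the mouse T cell receptor β variable (V) gene segment that encodes the protein domain called Vβ6. It was described here in tumors and draining lymph nodes (dLN) of mice carrying Lewis lung carcinoma (LLC), and its members were selected on one column of the clone tables, as all rows whose V segment was TRBV19. The deposited tables held 52254 such rows of 959731 (5.44%), with between 235 and 2614 in a library. After the reads had been drawn to 6 per sorted cell and the fragments of a tumor summed, 44977 of 861662 clones (5.22%) used TRBV19, counted in each repertoire. They were 37459 distinct clones. The segment was picked with its shares and large clones in these data known, so its shares are a description without a test.

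A T cell receptor β chain is assembled in the thymus by joining 1 V, 1 D and 1 J segment, and bases are trimmed and added at the joints. The joint encodes complementarity-determining region 3 (CDR3), the loop that contacts the peptide presented by an MHC molecule, so that a CDR3 sequence with its V and J segment marks a T cell clone. Vβ6 is known as one of the domains bound by the endogenous superantigen Mls-1a, which deletes the T cells that carry it in mouse strains that express it, and C57BL/6 mice do not express it.

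LLC cells had been inoculated under the skin of both sides of the back of female C57BL/6 mice (C57BL/6J in the study's methods). The mice were 8 weeks old when purchased, and 4 mice, numbered 5 to 8, were analysed on day 13. All groups came from the same tumor-bearing mice, and none was from tumor-free mice or from a mouse carrying an added allele. The 4 groups were CD8+ and CD4+ T cells of the tumors, each tumor cut into 2 fragments, and CD8+CD44hi and CD4+CD44hi T cells of the brachial dLNs. CD44hi is the surface state of activated and memory T cells, and it was a gate for the dLN cells only, so that tissue and gate cannot be told apart in any comparison of tumor with dLN. The 48 libraries, 32 of tumor fragments and 16 of dLNs, gave 32 repertoires, 1 per group, mouse and side, with 8 in each group. LLC is a transplantable lung carcinoma line of C57BL/6 origin. Each sorted population was read as RNA, so that fewer cells of a clone and less receptor RNA per cell cannot be told apart.

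The Trbv19 gene (ENSMUSG00000076475.2) lies on the plus strand of chromosome 6, from 41178375 to 41179048 in GRCm38, and is annotated as a TR_V_gene. It has an exon from 41178375 to 41178637 and an exon from 41178746 to 41179048, and the second one ends with the bases that open the CDR3. Those 16 germline bases, from the codon of the conserved cysteine to the recombination point, are shown first because every TRBV19 clone starts from them, and the clones that the results turn on follow. Each is written from the cysteine codon to the last CDR3 codon, with the bases between the end of the V part and the start of the J part in capitals. Those capitals hold the D part and any added bases. The most frequent CD8+ clone in the tumors of each mouse comes first:
Trbv19 germline end: tgtgccagcagtatag
CD8+, mouse 5, TRBJ2-3: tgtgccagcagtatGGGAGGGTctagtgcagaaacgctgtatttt
CD8+, mouse 6, TRBJ2-1: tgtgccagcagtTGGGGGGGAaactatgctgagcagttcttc
CD8+, mouse 7, TRBJ2-1: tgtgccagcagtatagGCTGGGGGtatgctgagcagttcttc
CD8+, mouse 8, TRBJ2-1: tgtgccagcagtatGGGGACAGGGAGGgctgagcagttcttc

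The most frequent CD4+ clone in the tumors of mice 5, 6 and 8 was set beside them, since the J partners differ:
CD4+, mouse 5, TRBJ2-7: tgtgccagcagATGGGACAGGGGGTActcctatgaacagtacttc
CD4+, mouse 6, TRBJ1-4: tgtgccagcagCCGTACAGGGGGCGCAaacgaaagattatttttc
CD4+, mouse 8, TRBJ2-5: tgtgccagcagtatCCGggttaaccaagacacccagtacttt

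Of 9 CD8+ clones at or above 0.01% of reads in both the left dLN of mouse 5 and the right dLN of mouse 8, the 6 that stayed at or above it once the left and right dLN of each mouse were combined are shown, because libraries that share them stand apart:
TRBJ2-4, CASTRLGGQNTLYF: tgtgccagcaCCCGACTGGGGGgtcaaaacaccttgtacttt
TRBJ1-1, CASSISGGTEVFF: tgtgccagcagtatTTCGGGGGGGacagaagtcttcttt
TRBJ2-3, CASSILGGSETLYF: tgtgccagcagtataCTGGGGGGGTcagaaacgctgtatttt
TRBJ1-1, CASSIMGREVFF: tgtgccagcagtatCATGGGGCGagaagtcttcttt
TRBJ1-4, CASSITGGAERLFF: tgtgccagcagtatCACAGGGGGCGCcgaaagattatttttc
TRBJ2-4, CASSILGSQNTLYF: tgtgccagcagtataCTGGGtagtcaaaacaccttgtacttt

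The left CD8+CD44hi dLN of mouse 5 and the right CD8+CD44hi dLN of mouse 8 stood apart, and results that rest on them are given with and without them. These mice are separate animals, yet 37 clones of any V segment each took at least 0.01% of the reads in both libraries, against at most 12 in the other 23 pairs of CD8+ dLN repertoires from different mice. TRBV19 accounted for 9 of the 37 clones (24.3%), and for 0 in each of those other pairs. The 9 TRBV19 clones took 1.13% of all reads in the left dLN of mouse 5 and 2.63% in the right dLN of mouse 8.

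The clone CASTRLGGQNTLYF with TRBJ2-4 was the most frequent of the 9. It took 0.771% of the reads in the left dLN of mouse 5 (95% Wilson interval on estimated cells 0.708 to 0.839) and 1.77% in the right dLN of mouse 8 (1.69 to 1.86). In the opposite dLN of both mice it had 0 reads, for which the same interval reaches up to 0.00747% in the right dLN of mouse 5 and 0.00589% in the left dLN of mouse 8. It was thus abundant on 1 side of each mouse and not detected on the other. The next one, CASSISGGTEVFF with TRBJ1-1, took 0.212% and 0.512%. All 9 clones were more frequent in the right dLN of mouse 8, by a ratio of 1.46 to 3.03 with a median of 2.40, so their order of abundance was nearly kept.

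**Figure D1:**
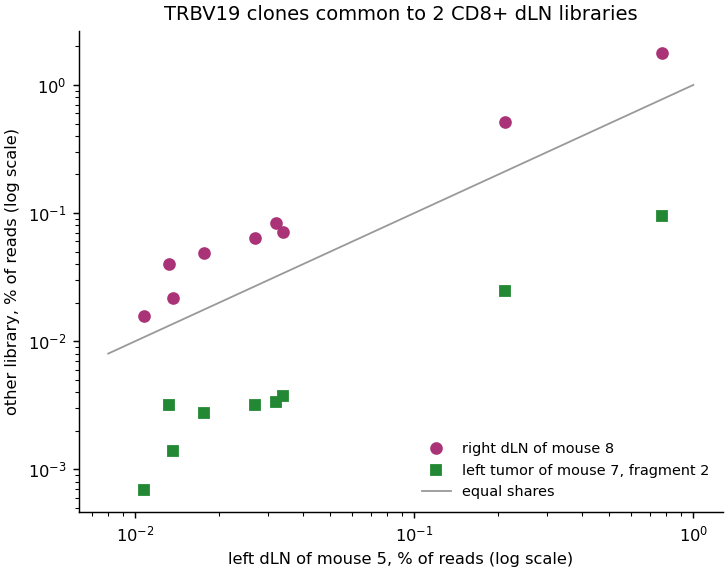
Share of reads of the 9 TRBV19 clones at or above 0.01% in both the left CD8+ dLN of mouse 5 (x axis, percent, log scale) and the right CD8+ dLN of mouse 8, in the latter library (circles) and in fragment 2 of the left CD8+ tumor of mouse 7 (squares; y axis, percent, log scale). The circles lie above the line of equal shares by 1.46 to 3.03 times, and the squares lie below the circles by 12.6 to 24.6 times.

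The same clones appeared in 1 tumor fragment of another mouse. Fragment 2 of the left CD8+ tumor of mouse 7 held all 9, at 0.138% of its reads together, and each was 12.6 to 24.6 times rarer there than in the right dLN of mouse 8 (median 18.96). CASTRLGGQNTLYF took 0.0949% of that fragment with 1377 reads. Of the 48 libraries, 36 held no read of the 9 clones, and the 12 that did were all of CD8+ T cells. Below these 3 libraries, the next was fragment 2 of the left CD8+ tumor of mouse 8, with 8 of the clones at 0.00572% of reads. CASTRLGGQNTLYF was found in 11 libraries and was the clone at or above 0.1% in 1 mouse that was also found in every other mouse of its group. In CD8+ dLNs of the 2 other mice this rested on few reads. There were 2 reads in the left dLN of mouse 6 and 3 in the right dLN of mouse 7, with intervals that start at 0. The cause of this sharing was not tested.

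Of the 9 clones, 6 carried isoleucine at residue 5 of the CDR3, the residue that the germline end of TRBV19 encodes, and 5 had a CDR3 of 14 residues. Over all TRBV19 clones of CD8+ dLNs these features had shares of 36.4% and 33.0%, and the counts were not tested against them. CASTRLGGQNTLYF itself had kept only 10 germline V bases and carried threonine and arginine in place of the serine and isoleucine. In CD4+CD44hi dLNs, 2 other clones recurred, both in mice 6 and 7. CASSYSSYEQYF with TRBJ2-7 had 0.0182% of the reads of the left dLN and 0.0176% of the right dLN in mouse 6, and 0.0161% and 0.00540% in mouse 7. A clone with TRBJ2-3 took between 0.0104% and 0.0162% in the same 4 dLNs. Unlike the CD8+ clones, both were present on the 2 sides of each mouse, and each was also read in the CD4+ tumors of 1 of the mice. In the tumors, no TRBV19 clone was at or above 0.01% in 2 mice.

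The share of TRBV19 among reads varied more between mice in CD8+ tumors than in any other group, while its share among distinct clones hardly varied. In the left and right CD8+ tumors it was 1.35% and 1.85% of reads in mouse 5, 0.834% and 0.955% in mouse 6, 3.52% and 4.04% in mouse 7, and 5.14% and 5.92% in mouse 8. The tumors of a mouse were thus alike, and every tumor of mice 7 and 8 was above every tumor of mice 5 and 6. The mean was 2.95% ± 2.11 (SD, n = 4 mice). As a share of distinct clones, TRBV19 ranged only from 4.77% to 5.18% in these 8 repertoires (4.95% ± 0.115).

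In CD4+ tumors TRBV19 took from 2.45% to 3.56% of reads (median 3.25%, mean 3.22% ± 0.318) and from 5.05% to 6.14% of clones (5.69% ± 0.362). In CD4+CD44hi dLNs it took 3.204% ± 0.139 of reads and 6.32% ± 0.225 of clones. In CD8+CD44hi dLNs it took from 2.50% to 5.36% of reads (median 2.83%, mean 3.18% ± 0.531) and 4.88% ± 0.124 of clones. Without the 2 libraries that stand apart, the CD8+ dLN share was 2.70% ± 0.175 of reads, and without their common clones alone it was 2.56% in the left dLN of mouse 5 and 2.73% in the right dLN of mouse 8.

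By reads, the order of the groups was CD4+ tumor, CD4+ dLN, CD8+ dLN and CD8+ tumor, and no neighbours in it differed by more than their SD. Without the 2 libraries that stand apart, CD8+ dLNs were last. Leaving out 1 mouse could put CD8+ tumors first, at 3.40% without mouse 5 (other groups 3.19% to 3.37%) and 3.64% without mouse 6 (3.14% to 3.34%). By clones, the order was CD4+ dLN, CD4+ tumor, CD8+ tumor and CD8+ dLN. With at least 6 reads per clone the CD4+ groups changed places, at 4.87% in tumors and 4.35% in dLNs. The CD8+ tumor and CD8+ dLN values overlapped, whereas the mouse values of CD4+ dLNs (6.17% to 6.66%) lay above those of CD4+ tumors (5.26% to 6.12%). Those of CD4+ tumors lay above those of CD8+ tumors (4.83% to 5.08%), and those of CD4+ dLNs lay above those of CD8+ dLNs (4.74% to 5.02%).

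Such separation was frequent among V segments. Of 22 V segments with at least 20 clones in every repertoire, the clone shares of the 4 mice did not overlap for 68.2% between CD8+ tumors and dLNs, 63.6% between CD4+ tumors and dLNs, 77.3% between the subsets in tumors and 95.5% between the subsets in dLNs. By share of reads these values were 45.5%, 31.8%, 31.8% and 90.9%. TRBV19 did not separate by reads in any of the 4 contrasts with all libraries, and by clones it separated in all but CD8+ tumors against dLNs. Without the 2 libraries that stand apart, its share of reads in CD8+ dLNs (2.50% to 2.92%) lay below that in CD4+ dLNs (3.06% to 3.39%), as 95.5% of V segments then separated in that contrast. The libraries left out hold abundant TRBV19 clones, so that leaving them out lowers this share by construction.

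**Figure D2:**
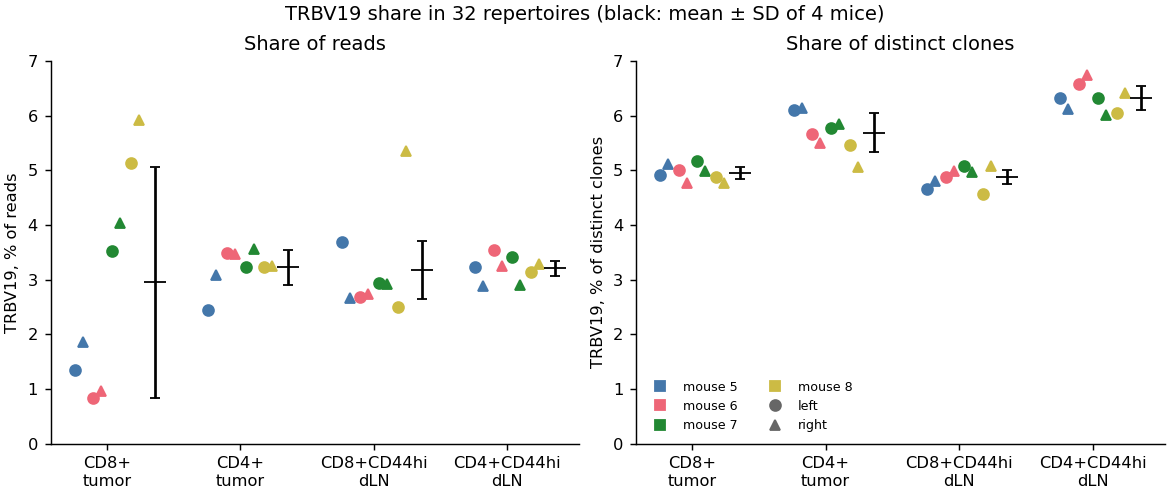
TRBV19 as a percent of reads (left) and of distinct clones (right) in the 32 repertoires; colour marks the mouse, circles the left and triangles the right side, and black marks the mean ± SD of 4 mice. By reads the CD8+ tumors spread from 0.834% to 5.92% with both tumors of a mouse close together, and by clones they lie between 4.77% and 5.18%.

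In 29 of 32 repertoires, TRBV19 took fewer reads than its clones would give at equal reads per clone. The ratio of its read share to its clone share was below 1 in 6 of 8 CD8+ tumors, 8 of 8 CD4+ tumors, 7 of 8 CD8+ dLNs and 8 of 8 CD4+ dLNs, with medians between 0.511 and 0.600. The gap was narrower with at least 6 reads per clone. The mean shares of reads and clones were then 2.85% and 3.37% in CD8+ tumors and 2.78% and 3.25% in CD8+ dLNs. They were 3.16% and 4.87% in CD4+ tumors and 2.84% and 4.35% in CD4+ dLNs. Over the 22 V segments, 63.1% of the ratios in CD8+ tumors were below 1, 58.0% in CD4+ tumors, 54.5% in CD8+ dLNs and 50% in CD4+ dLNs. Counted from the lowest ratio, TRBV19 ranked 2 to 14 in CD8+ tumors, 1 to 5 in CD4+ tumors, 2 to 17 in CD8+ dLNs and 2 to 3 in CD4+ dLNs. A TRBV19 clone had a median of 4.50 ± 0.577 reads in CD8+ tumors, against 8.00 ± 1.15 for clones with other V segments. The medians were 4.63 ± 0.250 against 8.38 ± 0.250 in CD8+ dLNs and 5.00 ± 0.408 against 9.88 ± 0.479 in CD4+ dLNs. Among the 22 V segments, TRBV19 had the lowest median, or shared it, in 22 of 32 repertoires, and the lowest or next to lowest in 29. On the reads as deposited it was lowest in 6 and lowest or next to lowest in 26. The share of clones with a single read was 15.4% ± 1.67 for TRBV19 and 9.05% ± 0.985 for other V segments in CD8+ tumors. Low reads per clone were not particular to TRBV19. In CD8+ tumors, TRBV2 and TRBV24 had mean medians of 4.375 and 4.625 reads, and 17.8% and 17.3% of their clones had a single read.

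The V segments whose log2 read share varied most like that of TRBV19 over the 32 repertoires were TRBV30 (Pearson r = 0.79, Spearman rho = 0.48), TRBV13-2 (r = 0.72, rho = 0.32) and TRBV3 (r = 0.60, rho = 0.35). These are descriptions over repertoires that share mice, and shares of 1 library sum to a fixed total.

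The mouse-to-mouse spread of CD8+ tumors lay largely in 1 clone per mouse. In mouse 8 the clone with TRBJ2-1 shown above took 3.57% of CD8+ reads in the left tumor (95% Wilson interval 3.52 to 3.63) and 4.64% in the right tumor (4.59 to 4.70). It made up 69.5% and 78.4% of the TRBV19 reads there. In mouse 7 the clone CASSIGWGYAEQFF, also with TRBJ2-1, took 1.90% (1.86 to 1.94) and 2.49% (2.44 to 2.53). Both were large in each of the 4 fragments of their mouse, from 3.45% to 5.53% and from 1.47% to 3.65%.

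In mouse 5 the largest clone, with TRBJ2-3, took 0.570% (0.539 to 0.603) in the left and 1.13% (1.08 to 1.18) in the right tumor, a 1.98-fold difference. In mouse 6 the clone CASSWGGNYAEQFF with TRBJ2-1 took 0.185% (0.173 to 0.198) and 0.147% (0.133 to 0.161). The largest clone of mouse 6 was thus the smallest of the 4 in both tumors. With the most frequent clone of each repertoire set aside, the other TRBV19 clones took 0.752% of reads in mouse 5, 0.729% in mouse 6, 1.58% in mouse 7 and 1.42% in mouse 8, so that mice 7 and 8 remained above mice 5 and 6.

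These clones, chosen as the most frequent in the tumors, were rarer in the dLNs of their mouse, as the choice favours. The clone of mouse 8 took 0.0961% of CD8+CD44hi reads in its left dLN and 0.0632% in its right dLN. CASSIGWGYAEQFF took 0.00330% in the left and 0.116% in the right dLN of mouse 7, where it was the most frequent TRBV19 clone over both dLNs. The clone of mouse 5 took 0.00586% and 0.00518%. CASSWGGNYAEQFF had 0 reads in the left dLN of mouse 6, with an upper limit of 0.00496%, and 5 reads in the right one. In other mice, the clones of mice 6 and 8 had no read, and the other two reached at most 17 reads in 1 of 24 repertoires.

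In CD4+ tumors the clone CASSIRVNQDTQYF with TRBJ2-5 in mouse 8 made up 0.515% of the left and 0.639% of the right CD4+ repertoire, and it had 0 reads in both dLNs, with upper limits of 0.0105% and 0.00732%. The clones of mice 5 and 6 took between 0.192% and 0.217% in each tumor. None of these 3 CD4+ clones was read in another mouse, and the left and right tumors differed by 1.07 to 1.24 times.

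**Figure D3:**
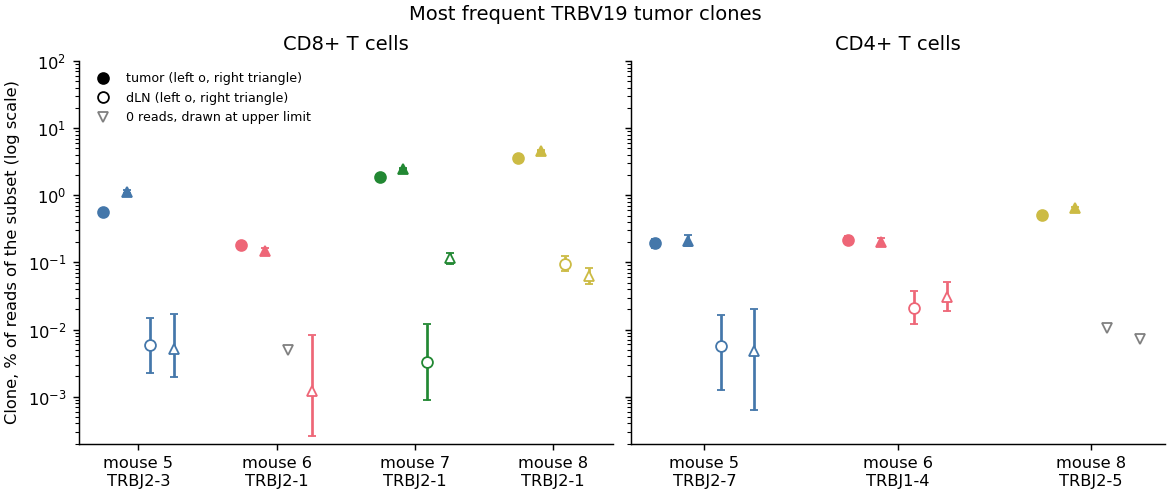
Share of reads (log scale, percent of the subset) of the most frequent TRBV19 tumor clone in CD8+ T cells of 4 mice and CD4+ T cells of mice 5, 6 and 8, in tumors (filled) and dLNs (open), with 95% Wilson intervals on estimated cells; grey triangles mark 0 reads, drawn at the upper limit of the interval. Every clone shown, chosen for its frequency in the tumors, is more frequent in both tumors than in either dLN, from 4.64% in the right CD8+ tumor of mouse 8 down to 0 reads in both CD4+ dLNs of mouse 8.

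Counted over all mice, 12 TRBV19 clones exceeded 0.1% of reads in a CD8+ tumor and 17 in a CD4+ tumor, which were 3.65% and 2.48% of such clones of any V segment. All of them were read in both tumors of their mouse. A clone of uneven sides was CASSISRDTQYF with TRBJ2-5, which was named after its values were seen and took 0.158% of the left CD8+ tumor of mouse 8 and 3 reads of the right one. It was present in both left fragments, at 0.233% and 0.0871%. In CD4+ dLNs 7 clones exceeded 0.1% (2.13% of such clones of any V segment), all read on both sides, and the most frequent, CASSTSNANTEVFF with TRBJ1-1 in mouse 5, took 0.264% on the left and 0.0785% on the right. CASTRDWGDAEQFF in mouse 8 took 0.131% and 0.159%, and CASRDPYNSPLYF in mouse 7 took 0.112% and 0.103%. The most frequent CD4+ dLN clone of mouse 6, with TRBJ2-1, took 0.0833% and 0.0687% there and 0.113% and 0.107% in the tumors of the same mouse. In CD8+ dLNs, 4 of the 5 entries above 0.1% were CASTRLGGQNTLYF and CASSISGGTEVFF in the 2 libraries that stand apart, and the fifth was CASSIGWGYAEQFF. The 5 were 13.5% of the 37 such entries of any V segment. The most frequent CD8+ dLN clone of mouse 6, with TRBJ2-2, took only 0.00215% and 0.0225%.

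Tumor and dLN also differed in how TRBV19 reads were spread over clones. Clonality is 0 where all clones have equal reads and 1 where a single clone holds all. Within TRBV19 it ranged from 0.240 to 0.807 in CD8+ tumors (mean 0.530 ± 0.213), from 0.187 to 0.379 in CD4+ tumors (0.264 ± 0.0794), from 0.0447 to 0.359 in CD8+ dLNs (0.111 ± 0.0772) and from 0.0725 to 0.154 in CD4+ dLNs (0.103 ± 0.00703). It was higher in tumors than in dLNs in 4 of 4 mice for CD8+ (difference 0.419) and for CD4+ T cells (0.160). Each gave p = 0.0286 in an exact two-sided permutation test over 70 splits of 4 against 4 mouse values, the smallest p this test can give. Since the segment was chosen with its large clones known, these p-values are no independent support. Among clones with other V segments, clonality was 0.461 ± 0.0666 in CD8+ tumors and 0.0393 ± 0.00374 in CD8+ dLNs, and 0.194 ± 0.0465 in CD4+ tumors and 0.0853 ± 0.00724 in CD4+ dLNs, so that the tumors were higher there too.

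Of 23 such tests on TRBV19, 14 had an exact p under 0.05, and after Benjamini-Hochberg adjustment over the 23 none was under 0.05, with adjusted values of 0.0597 to 0.0685 for the 14. The tests of 4 mice could go no lower than 0.0286, and those that paired values by mouse (a replicate block) no lower than 2 of 16 sign changes. Between the subsets, clonality in tumors was 0.266 higher in CD8+ T cells, in 4 of 4 mice (exact permutation p = 0.0857, adjusted 0.123). In dLNs it differed by 0.00753 (exact permutation p = 0.914, adjusted 0.914), and without the 2 libraries that stand apart CD8+ dLNs were at 0.0535 ± 0.0105 and differed from CD4+ dLNs by -0.0499 (exact permutation p = 0.0286). Those libraries were set apart for their abundant clones and had the highest clonality of the CD8+ dLNs, so leaving them out lowers it by construction, and this p is no support for a difference.

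The mean CDR3 length of distinct TRBV19 clones, in residues, was 13.89 ± 0.0344 in CD8+ tumors, 13.73 ± 0.0170 in CD8+ dLNs, 13.78 ± 0.0400 in CD4+ tumors and 13.76 ± 0.0219 in CD4+ dLNs. CD8+ tumor clones were 0.156 residues longer than CD8+ dLN clones and 0.112 longer than CD4+ tumor clones, each in 4 of 4 mice (exact permutation p = 0.0286, adjusted 0.0597). Clones with other V segments were also longest in CD8+ tumors, at 14.06 ± 0.00916 residues in CD8+ tumors and 13.94 ± 0.0242 in CD8+ dLNs. They were at 13.91 ± 0.0351 in CD4+ tumors and 13.79 ± 0.0245 in CD4+ dLNs, so that their mean was higher in tumors than in dLNs in both subsets, without a test. CD4+ tumor and dLN TRBV19 clones differed by 0.0205 (exact permutation p = 0.457, adjusted 0.501). The tumor minus dLN difference itself was 0.136 larger in CD8+ than in CD4+ T cells, in 4 of 4 mice (exact permutation p = 0.0286, adjusted 0.0597), and 0.113 larger without the 2 libraries (exact permutation p = 0.0571). With at least 6 reads per clone this difference was 0.0971 and that between the subsets in tumors 0.0866 (exact permutation p = 0.0571 for each). Weighted by reads, the latter was 0.507 (exact permutation p = 0.0857), and CD4+ tumors against dLNs turned to -0.193 (exact permutation p = 1).

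The most frequent length was 14 residues in each group, at 33.5% ± 0.787 of clones in CD8+ tumors and 33.0% ± 1.13 in CD8+ dLNs. Clones of 15 residues made up 22.5% ± 0.768 in CD8+ tumors and 19.96% ± 0.534 in CD8+ dLNs, and clones of 12 residues 9.02% ± 1.15 and 11.6% ± 0.247. By reads, 14 residues took 52.1% ± 29.3 in CD8+ tumors, where the largest clones of mice 6, 7 and 8 have that length, and 15 residues 26.8% ± 30.2, the length of the largest clone of mouse 5. Read-weighted lengths in CD8+ tumors therefore followed single clones, less so in mouse 6, whose largest clone held a smaller part of the TRBV19 reads.

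TRBV19 clones were shorter than the mean of all clones with other V segments, with differences of -0.176 residues in CD8+ tumors, -0.133 in CD4+ tumors and -0.205 in CD8+ dLNs, each in 4 of 4 mice (exact permutation p = 0.0286, adjusted 0.0597). In CD4+ dLNs the difference was -0.0324 residues (exact permutation p = 0.114, adjusted 0.155). Its length was within the range of single V segments, of which 8 of the other 21 were shorter in CD8+ tumors, 7 in CD4+ tumors, 7 in CD8+ dLNs and 10 in CD4+ dLNs. Weighted by reads, the difference turned to 0.264 in CD8+ tumors and 0.0367 in CD4+ dLNs, and it was -0.0115 in CD4+ tumors (exact permutation p = 1). Between the V and J ends, TRBV19 clones carried 9.85 ± 0.0922 bases in CD8+ tumors, 9.62 ± 0.108 in CD8+ dLNs, 9.46 ± 0.127 in CD4+ tumors and 9.40 ± 0.116 in CD4+ dLNs. The CD8+ clones carried 0.384 more than the CD4+ clones in tumors and 0.223 more in dLNs, and CD8+ tumor clones carried 0.227 more than CD8+ dLN clones (exact permutation p = 0.0286, adjusted 0.0597 for each, 4 of 4 mice). Without the 2 libraries the last difference was 0.187 (exact permutation p = 0.114). The difference in dLNs had an exact permutation p of 0.0571 on reads as deposited and with at least 2 or 6 reads per clone. That in tumors had p = 0.0571 with at least 6 reads, and that between CD8+ tumors and dLNs with at least 2 or 6. Clones with other V segments carried 10.03 ± 0.0541 bases in CD8+ and 9.47 ± 0.0656 in CD4+ tumors, and 9.70 ± 0.0642 in CD8+ and 9.20 ± 0.0422 in CD4+ dLNs.

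Isoleucine at residue 5, which the germline end encodes, was present in 42.4% ± 0.645 of TRBV19 clones in CD8+ tumors, 41.5% ± 0.964 in CD4+ tumors and 41.8% ± 0.463 in CD4+ dLNs, but in 36.4% ± 0.214 in CD8+ dLNs. It was counted whether germline or other bases completed its codon. The CD8+ dLN repertoires ranged from 35.1% to 37.5% and the other groups from 40.0% to 44.3%, without overlap. This feature was looked at after the values were known and was not tested. Germline V bases kept averaged 13.1 ± 0.0112 in CD8+ tumors and 12.9 ± 0.0173 in CD8+ dLNs.

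**Figure D4:**
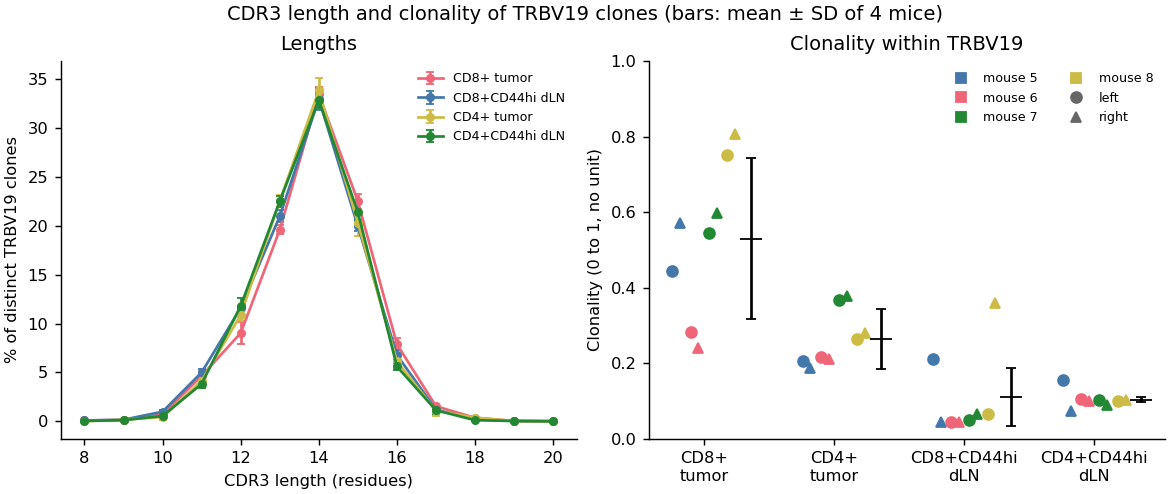
Left, percent of distinct TRBV19 clones by CDR3 length in residues (mean ± SD of 4 mice); right, clonality within TRBV19 (0 to 1) in the 32 repertoires, with colour for the mouse, circles for the left and triangles for the right side, and black for the mean ± SD of 4 mice. The CD8+ tumor curve lies above the others at 15 residues (22.5%), and the 2 CD8+ dLN points at 0.212 and 0.359 are the libraries that share clones.

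TRBV19 was joined to 12 J segments. TRBJ2-7 was the most frequent partner in each group, at 18.8% ± 0.654 of TRBV19 clones in CD8+ tumors, 18.9% ± 0.902 in CD4+ tumors, 17.9% ± 0.175 in CD8+ dLNs and 18.5% ± 0.961 in CD4+ dLNs. TRBJ2-1 took 17.3% ± 0.258 of clones in CD8+ tumors, 14.7% ± 0.535 in CD8+ dLNs, 11.5% ± 0.749 in CD4+ tumors and 10.5% ± 0.810 in CD4+ dLNs. It had the largest difference in 3 contrasts: 2.59 percentage points higher in CD8+ tumors than in CD8+ dLNs (exact permutation p = 0.0286, adjusted 0.0857 over 12 J segments), 5.83 higher in CD8+ than CD4+ tumors (adjusted 0.0686) and 4.20 higher in CD8+ than CD4+ dLNs (adjusted 0.0571), each in 4 of 4 mice. Among clones with other V segments TRBJ2-1 was also higher in CD8+ T cells, at 14.8% ± 0.207 against 10.7% ± 0.0960 in tumors and 13.95% ± 0.1254 against 9.33% ± 0.169 in dLNs. Between CD4+ tumors and dLNs the largest difference was that of TRBJ2-3, at -1.12 points (tumor minus dLN, lower in 3 of 4 mice, exact permutation p = 0.2, adjusted 0.6).

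No J segment passed the adjusted threshold of 0.05 in any contrast (0% called in each of the 4), and 4, 0, 5 and 6 of the 12 had an unadjusted exact p under 0.05 in CD8+ tumors against dLNs, CD4+ tumors against dLNs, the subsets in tumors and the subsets in dLNs. The exact permutation p could go no lower than 0.0286, so a few J segments at that p could not pass after adjustment over 12. Even the 6 between the subsets in dLNs had an adjusted p of 0.0571. A count of 0 therefore does not show that J segments were used alike. With clones of at least 2 reads, 8 of 12 passed between the subsets in dLNs.

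Beside clones with other V segments, TRBV19 clones used some J segments at other shares. The 4 mouse values of TRBV19 and of other V segments did not overlap for 50% of J segments in CD8+ tumors, 25% in CD4+ tumors, 50% in CD8+ dLNs and 33.3% in CD4+ dLNs. TRBJ1-6 lay higher with TRBV19 in each group, as in CD8+ dLNs with 5.27% ± 0.492 against 2.82% ± 0.0756. TRBJ1-1 was at 12.4% ± 0.603 with TRBV19 and 9.50% ± 0.0178 with other V segments in CD8+ dLNs, and at 9.19% ± 0.608 and 10.1% ± 0.296 in CD4+ tumors. The share of TRBJ2-7 with TRBV19 minus that with other V segments was -3.60 percentage points in CD8+ tumors, -3.70 in CD8+ dLNs, -0.438 in CD4+ tumors and -0.300 in CD4+ dLNs. These shares were not tested.

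By reads, J partners in CD8+ tumors followed the largest clone of the mouse. The share of TRBJ2-1 among TRBV19 reads ranged from 14.1% to 75.9% between mice, the widest range of any J segment, and that of TRBJ2-3 from 3.10% to 54.5%. In CD8+ dLNs the widest range was that of TRBJ2-4, the partner of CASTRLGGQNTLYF, from 7.76% to 23.999%.

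**Figure D5:**
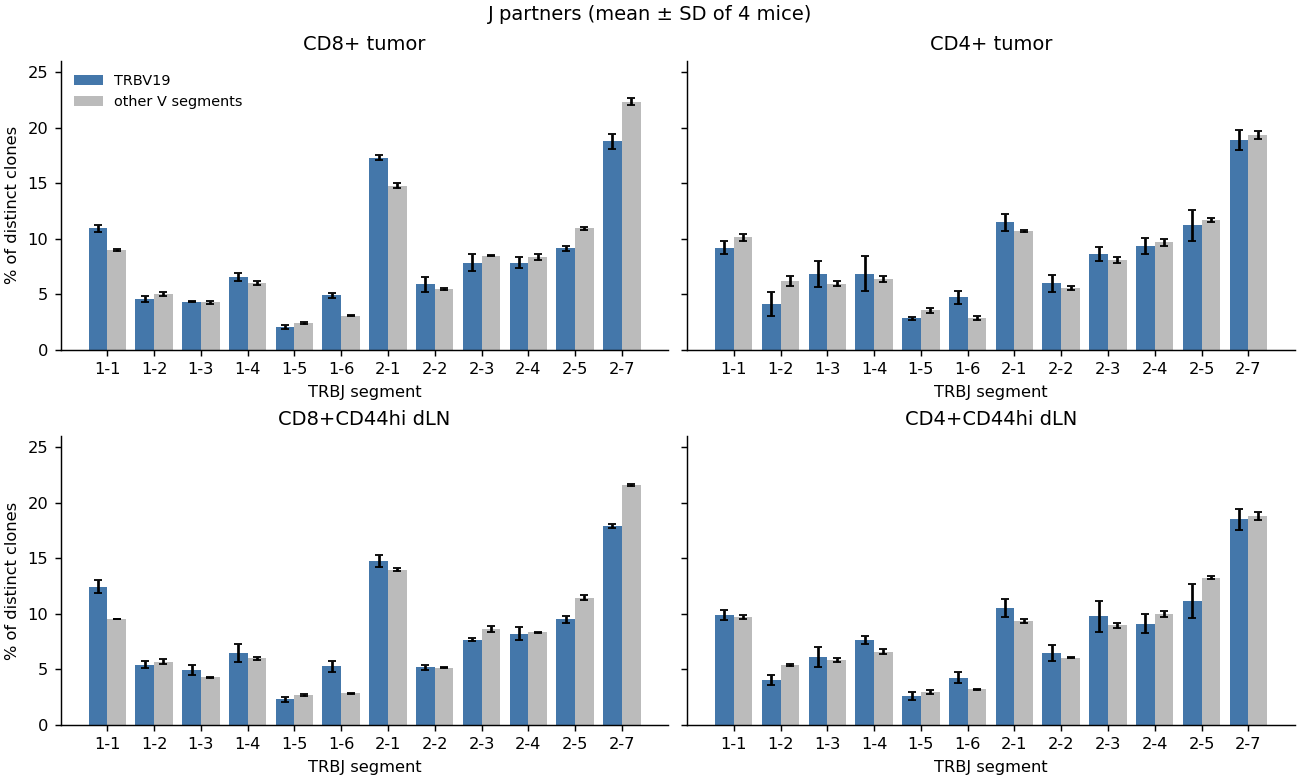
Percent of distinct clones joined to each of 12 J segments for TRBV19 (blue) and all other V segments (grey) in the 4 groups; bars are means and error bars the SD of 4 mice. TRBJ2-1 reaches 17.3% with TRBV19 in CD8+ tumors and 11.5% in CD4+ tumors, and TRBJ2-7 is the highest bar for TRBV19 in each group.

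The TRBV19 repertoires of the left and right tumor of a mouse overlapped widely. Overlap was taken as the geometric mean of the percentages of TRBV19 reads, on each side, in clones found on both. In CD8+ tumors it was 70.1%, 51.3%, 76.7% and 93.2% in mice 5, 6, 7 and 8, against 0.273% to 13.7% between mice (12 pairs, mean 2.05%). In CD4+ tumors it was 78.9% to 89.3% within and 0% to 0.927% between mice, and in CD4+ dLNs 36.7% to 42.6% within and 0.290% to 2.42% between. In these 3 groups the 4 pairs within mice lay above all 12 pairs between mice (exact one-sided permutation p = 0.0417, the smallest over 24 pairings, adjusted 0.0685).

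CD8+CD44hi dLNs differed from that order. The overlap of left and right was 4.62% to 8.45%, with between 66 and 86 shared clones, and between mice it was 0.725% to 42.1% (exact one-sided permutation p = 0.292, adjusted 0.335). The 42.1% belonged to the left dLN of mouse 5 and the right dLN of mouse 8. Without the clones common to those libraries their overlap was 5.26%, that within mice was 7.23% ± 1.56 and that between mice 1.75% ± 1.18. Since those clones were chosen as shared between mice, leaving them out lowers the overlap between mice by construction, and these values have no test.

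TRBV19 clones of the tumors were found in the dLNs of the same mouse with an uneven weight. Of CD8+ tumor clones, 5.75% ± 0.924 were also read in a dLN, and they held 62.0% ± 19.1 of the TRBV19 tumor reads, between 37.8% and 84.1%. Of CD4+ tumor clones, 21.9% ± 3.66 were read in a dLN, with 62.0% ± 11.8 of the reads. For other V segments the shares were 7.07% ± 0.906 of clones and 71.9% ± 13.5 of reads in CD8+, and 20.97% ± 2.87 and 71.0% ± 2.55 in CD4+ T cells. In each mouse and subset the dLNs held fewer reads than the tumors, so that a clone counted as missing was one not detected at this depth.

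Few TRBV19 clones were common to mice. Clones with other V segments were not counted in this way, so the counts mark no trait particular to TRBV19. A single read sufficed for a clone to count as read in a mouse. Of 15837 distinct TRBV19 clones in CD8+ tumors, 410 (2.59%) were read in at least 2 mice and 11 in all 4. The counts were 45 of 4521 and 0 in CD4+ tumors, 412 of 13349 and 6 in CD8+ dLNs, and 90 of 6853 and 0 in CD4+ dLNs. Counted by CDR3 amino acids and J segment, 53 of 13943 in CD8+ tumors, 4 of 4228 in CD4+ tumors, 57 of 11906 in CD8+ dLNs and 8 of 6270 in CD4+ dLNs were in all 4 mice. In CD8+ tumors 9.46% of these amino acid sequences were encoded by more than 1 nucleotide sequence.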

How the data were processed

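TCRβ libraries of sorted T cells were made from RNA by template switching and nested PCR without molecular identifiers. The authors trimmed and filtered the reads (Cutadapt 3.2 per the processing notes, and PRINSEQ), assembled productive clones with MiXCR against IMGT segments, and deposited for each clone a read count and a fraction, its count over the library total. The deposited counts, 326582 to 4840722 per library, were those before down-sampling, so each library was drawn once without replacement to a depth of 6 reads for every cell sorted, the depth given in the methods, leaving 131070 to 2035380 reads. Cell numbers came from the study's supplement.

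Clones were told apart by CDR3 nucleotides together with the V and J segments. Fragments were summed and left and right values averaged per mouse (n = 4). Wilson 95% intervals used estimated cells, also for the upper limit at 0 reads. Intervals and limits cover counting error only. The first V bases matched the germline of the GRCm38 annotation in 97.3% of TRBV19 rows. Between 0.194% and 3.44% of the TRBV19 clones of a repertoire had the same J segment and CDR3 with another V segment too. By reads these clones held 12.6% to 78.7% of TRBV19 in CD8+ tumors and 1.34% to 43.9% in CD8+ dLNs. They held 0.00720% to 38.7% in CD4+ tumors and 0.363% to 2.39% in CD4+ dLNs. The version of the most frequent clone of a CD8+ repertoire with another V segment had at most 8 reads.

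Groups were compared by exact permutation tests, which were checked on simulated data (Python 3.11.15, numpy 2.4.6, pandas 2.3.3). The labels pair left with right and tumor with dLN samples through the mouse. Deviations of left and right clonality from the group means correlated (r = 0.711, 16 pairs), those of CDR3 length less (r = 0.0656). Named were the most frequent TRBV19 tumor and dLN clone of each mouse, clones at or above 0.01% in 2 mice, the clone at or above 0.1% in 1 mouse and found in all, the J segments with the highest share, the largest difference or the widest range, and the 3 most similar V segments. One clone that this rule names is not reported here. Members and lists were chosen with earlier results of these data known. Alternatives were reads as deposited, read minimums of 2 and 6, a filter on clones 100 times rarer than in another mouse, amino acid clones, leaving out each mouse, weighting by reads, the mouse as a replicate block, the Gini coefficient and the Morisita-Horn index. Leaving out the 2 dLN libraries, their common clones or the most frequent clone was added after seeing the data.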

Additional observations from a re-analysis of the deposited data

Results flagged for a closer look

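Dixon's test was run on the 8 repertoires of each group for 5 TRBV19 measures, 20 sets in all, of which chance flags about 1 in 20 if the values are independent. They are the left and right sides of 4 mice, whose deviations correlated (r = 0.746 for the share of reads and 0.711 for clonality), so this rate is approximate. In all, 4 sets had a repertoire far from the others. The share of reads was 2.45% in the left CD4+ tumor of mouse 5, below the other CD4+ tumors. The share of reads was 5.36% in the right CD8+CD44hi dLN of mouse 8, a library that shares abundant clones with the left dLN of mouse 5. The bases between the V and J ends averaged 9.79 in the right CD4+ tumor of mouse 8, above the other CD4+ tumors. Clonality within TRBV19 was 0.154 in the left CD4+CD44hi dLN of mouse 5, above the other CD4+ dLNs, and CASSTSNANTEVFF took 0.264% of the reads there. The tumor minus dLN difference in CDR3 length was 0.136 residues larger in CD8+ than in CD4+ T cells (exact permutation p = 0.0286 over 70 splits, adjusted 0.0597). No cause of these values was tested.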

How the results depend on the processing

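Of 182 recomputed values with a test, leaving out a mouse and the replicate block aside, 155 kept their direction and side of the threshold of exact p = 0.05. The cause of the changes was not tested. The filter between mice changed none. The share of TRBV19 among clones in CD8+ tumors, CD8+ dLNs and CD4+ dLNs was 5.14%, 5.12% and 6.63% on the reads as deposited and 4.62%, 4.53% and 5.89% with at least 2 reads. With at least 6 reads it was 3.37%, 3.25% and 4.35%, 4.87% in CD4+ tumors, which turned the direction between CD4+ tumors and dLNs, and the share of reads in CD4+ dLNs was 2.84%. Without the most frequent clone the share of reads was 2.71% in CD4+ tumors, against 3.22% with it, and 1.15% in CD8+ tumors, against 2.95%. Bases between V and J lost their call for CD8+ against CD4+ dLNs on deposited reads (0.224), with at least 2 reads (0.234) and 6 reads (0.235), for CD8+ tumors against dLNs with at least 2 (0.205) and 6 reads (0.213), and for CD8+ against CD4+ tumors with at least 6 (0.273). With at least 6 reads CDR3 length lost its call between the subsets in tumors (0.0866) and in the comparison of tumor minus dLN differences (0.0971). J segments called between the subsets in dLNs numbered 8 with at least 2 reads and 7 by amino acids, against 0. In the main setting 6 were at the lowest possible exact p, too few for a call after adjustment.

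Weighted by reads, CDR3 length differed by -0.193 for CD4+ tumors against dLNs, by 0.507 between the subsets in tumors (call lost) and by -0.0739 in dLNs (call gained). TRBV19 against other V segments differed by 0.264 in CD8+ tumors and 0.0367 in CD4+ dLNs, both reversed, and by -0.0115 in CD4+ tumors (call lost). Bases between V and J differed by -0.322 for CD4+ tumors against dLNs (reversed), and lost the call at 0.230, 0.910 and 0.358 in the other contrasts. TRBJ2-1 differed by -3.10 points for CD4+ tumors against dLNs (reversed), and lost its unadjusted p under 0.05 for CD8+ tumors against dLNs (31.9) and CD8+ against CD4+ dLNs (3.0002).

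CD8+ against CD4+ dLN clonality turned to -0.0517 by the Gini coefficient and, without the 2 libraries that stand apart, to -0.0499, where exact permutation p went from 0.914 to 0.0286. Leaving those libraries out lowers CD8+ dLN clonality by construction, so that p is no support. Without those libraries, calls were lost for bases between V and J in CD8+ tumors against dLNs (0.187) and for the difference of CDR3 length differences (0.113). The CD8+ dLN overlap within minus between mice was -0.0667 by amino acids, -0.0307 by the Morisita-Horn index, 5.48 without the common clones (no test), and 4.59, -2.28, -3.22 and 4.42 without mouse 5, 6, 7 or 8. Leaving out a mouse turned the direction of no called result (the uncalled CD8+ against CD4+ dLN clonality was -0.0273 without mouse 8), and 3 mice cannot reach an exact p of 0.05. With the mouse as a replicate block, values such as the CD8+ clonality difference of 0.419 are unchanged by construction, and p cannot go below 2 of 16 sign changes, which is above 0.05, so that no result could be called with it. J segment counts were not run for these settings. Depth limits what a count of 0 can show to the upper limits given beside such counts.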
